A study of Arabidopsis thaliana with 30 samples.

Results

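In Arabidopsis thaliana Col-0 seed, 118 of 22746 probe sets carried transcripts that were abundant in freshly harvested and in dry seed, persisted through 12 h of stratification and had dropped at least 8-fold by 48 h of stratification. They were chosen by measured values. With L as the log2 of the mean intensity of a group's 3 arrays after 16 was added, L had to be at least 8 (an intensity of 240) in freshly harvested and in dry seed. L at 48 h of stratification had to be lower by at least 3 than both in dry seed and at 12 h of stratification. In all, 124 probe sets met these thresholds, and 6 of them were set aside by name: HSP15.7, HSP26.5, AT1G54050, ZAT10, LEA25 and AT3G22490. HSP17.6C and AT1G03890 were named for removal too but did not meet the thresholds. Of the 118 probe sets, 66 name exactly 1 gene each and all 66 genes differ, 2 name several genes, and 50 carry no gene name in the annotation used. The 118 are 3.62% of the 3263 probe sets that met the level required of harvested and dry seed. Without the 118 and the 6 set aside, 3139 remain, called the other stored probe sets here.

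Each of 10 groups had 3 arrays, with RNA from 80 mg of whole seed per sample. The groups were freshly harvested seed (H), seed dried for 14 days in one description and 15 days in another (0 h), and seed stratified in darkness at 4 °C on MS medium for 1, 12 or 48 h (1 h S, 12 h S and 48 h S). They were followed by seed after those 48 h of stratification and a further 1, 6, 12, 24 or 48 h of continuous light of 100 µE at 22 °C (1, 6, 12, 24 and 48 h SL). All groups are wild-type Col-0 seed, and every group after 0 h was also imbibed. Light and warmth began together, and cold began together with imbibition, so these cannot be told apart within each pair. The labels do not say whether the 3 samples of a group came from separate seed lots. The spread that enters every p-value is that among the 3 samples, and it may be technical.

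A maturing seed fills with mRNA that survives drying. This stored set holds transcripts of late embryogenesis, many of them made under abscisic acid and coding for reserve, chaperone and desiccation-protective proteins, and it is translated or degraded after imbibition as the embryo turns to germination. Stratification, a moist cold period in the dark, is used to break the remaining dormancy and to bring seed to germinate together. Because whole seed was measured, fewer cells that hold a transcript and less of it per cell cannot be told apart. No sequences are shown here, since the files used hold none for these probe sets.

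Median intensity over an array was between 11.8 and 19.4, higher late in the course, and replicates correlated at 0.985 or more. The seed marker genes AT3G01570, an oleosin, and LTI30, a dehydrin, were bright in dry seed, at 13362 ± 533 for AT3G01570 and 12795 ± 799 for LTI30 (SD, n = 3 each). OLEO3, another oleosin and the last of the 3 seed markers with a named probe set, was dimmer, at 640.2 ± 66.9. Of 2 seed coat markers on the array, BAN was at 4.58 in dry seed and DFR at 8.25, and no endosperm marker of the list had a named probe set. The 4 pollen markers were between 112 and 492 in harvested seed and between 5.50 and 43.8 in dry seed. Among the arrays at 1 h of light, replicate 1 was the highest for 59 of the 118 probe sets, against 20 for replicate 2 and 39 for replicate 3. Results that rest on that array are given with and without it.

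The 118 stayed high through 12 h of stratification, were far lower by 48 h and mostly declined further in light. Their median group mean was 2039 in harvested seed, 2155 in dry seed and 2193, 1373 and 81.4 after 1, 12 and 48 h of stratification. It then was 97.9 at 1 h of light, 42.2 at 6 h, 19.2 at 12 h, 13.4 at 24 h and 10.1 at 48 h. The other stored probe sets began lower and ended higher, with medians of 582 in dry seed, 559 and 497 after 12 and 48 h of stratification, and 225 by 48 h of light. The drop between 12 and 48 h of stratification is what chose the 118, so these values are a description. The groups are unevenly spaced in time, and none lies between 12 and 48 h of stratification, so rates of loss were not compared.

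**Figure D1:**
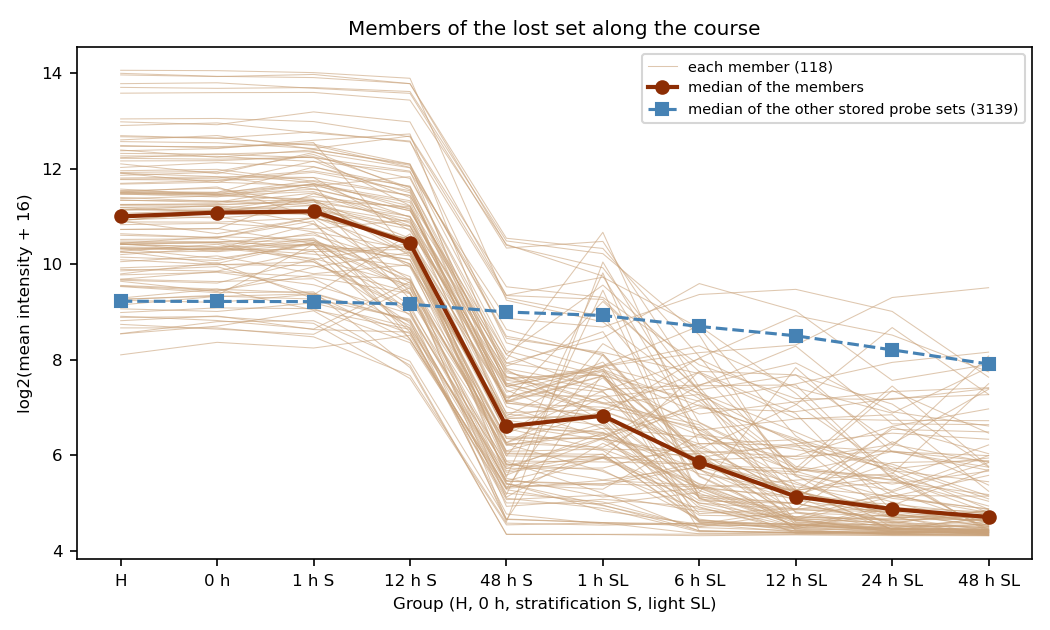
Group mean on a log2 scale with 16 added (vertical axis) over the 10 groups (horizontal axis). Thin lines are the 118 probe sets, and the thick and the dashed line are medians of the 118 and of the other stored probe sets. The median of the 118 is 2193 at 1 h of stratification, 81.4 by the end of stratification and 10.1 at the end of the light period, and that of the other stored probe sets is 580, 497 and 225 in these groups.

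Levels in dry seed stayed close to those in harvested seed, and part of the loss had come by 12 h of stratification. Dry minus harvested seed ranged from -0.27 to 0.26 on the log2 scale over the 118, and 0 differed by 1 or more, where 0.334% of all probe sets were lower by that much. At 1 h of stratification the median share of the dry seed level was 102.8%, from 58.6% for AT2G29340 to 212% for 246222_at. That unnamed probe set was the only one higher by at least 1, where 0.343% of all probe sets were, and 0 were lower by as much, where 0.189% were. By 12 h of stratification 105 of the 118 lay below their level at 1 h, and 23 were lower by at least 1, which is 19.5%, where 0.897% of all probe sets were. Another unnamed probe set was higher by at least 1, where 2.88% of all were. The median share left at 12 h was 72.0% of the dry seed level, from 21.8% for 254299_at to 186%, and 95 kept at least 50%. The rule capped how far a transcript could have fallen by then, so no test was made.

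At 48 h of stratification the median share left was 3.91%, and the range ran from 0.660% for AT2G25625 to 12.1%. AT2G25625 was at 4.38 there, near the floor of the arrays, so its share does not measure the transcript left. In that group 10 of the 118 had a mean under 16. On the log2 scale 48 h of stratification minus dry seed had a median of -4.16, from -6.09 to -3.00. All 3 arrays at 48 h lay below all 3 arrays of dry seed for each of the 118. The share of all probe sets that did so was not counted, so nothing is read from this number. By the rule 100% of the 118 have a lower group mean at 48 h of stratification. Of all probe sets 8.23% were called lower by limma against dry seed and 8.35% against 12 h of stratification. Just inside the limit of 3 lay AT5G23340 at 3.03, AT1G76590 at 3.05 and AT5G63190 at 3.06, each taken as the smaller of its 2 falls. Just outside lay AT4G27530 at 2.998, AT1G03270 at 2.97 and NET3A at 2.95.

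The choice made no use of the group at 1 h of stratification or of the groups in light, and they were compared by limma over all probe sets. However, 1 h of stratification lies between dry seed and 12 h, both high by the rule. The light began after 48 h of stratification, low by the rule. Over the 118 the median log2 difference was 0.04 from dry seed to 1 h of stratification. From 48 h of stratification to 1 h of light it was -0.03. Differences of 1 h of light from 1 h of stratification, and their p-values, therefore largely repeat the choice. Those of 48 h of light from 1 h of stratification begin at the same high level and come after the same low one. They are not independent of the choice either. For single genes below, p-values and gaps between arrays in both comparisons describe the loss and are no separate evidence for it. A probe set was called with an adjusted p under 0.05 and a log2 difference of at least 1. At 1 h of light 114 of the 118 were lower than at 1 h of stratification and 0 were higher, where 9.36% of all probe sets were called lower and 12.6% higher. The median log2 difference was -4.18, with a range of -6.84 to -0.15, and among the other stored probe sets 34.4% were called lower. For 116 of the 118 the 3 arrays at 1 h of light all lay below the 3 at 1 h of stratification. The share of all probe sets that did so was not counted, so nothing is read from this number. At 48 h of light 117 of the 118 were lower than at 1 h of stratification, with a median of -5.78, and 0 were higher. Of all probe sets 16.8% were called lower and 19.3% higher there, and of the other stored ones 56.4% were called lower. In both comparisons 113 of the 118 were called lower, and the joint share of all probe sets was not counted. The shares of the 118 called lower were 96.6% at 1 h and 99.2% at 48 h of light, so a role whose genes are all lower below does as the 118 do, and nothing is read from its count.

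Transcription regulators are described first. Only 1 of the 4 that could be recognised sits in the list of abscisic acid signalling and maturation regulators, which has 2 named probe sets among its 39 genes. EEL, a bZIP factor that competes with ABI5 at the promoter of a late embryogenesis gene, had 29.9, 27.2 and 12.4 on its arrays at 1 h of light, against 675, 605 and 697 at 1 h of stratification. The ranges lie far apart, and the log2 difference was -4.14 ± 0.13 (SE, limma, adjusted p = 9.61e-18). In dry seed EEL had 688, 628 and 780, and at 48 h of stratification 28.5, 24.8 and 24.7. EEL then rose to 77.8, 63.6 and 72.1 at 6 h of light (1.18 ± 0.13 over 1 h of light, adjusted p = 8.30e-08), a level still far below that of dry seed. The call for that rise was lost without replicate 3 of 1 h of light, its lowest array, at 0.97, and with 64 added in place of 16, at 0.64. BZIP53, the other named gene of the list and a bZIP partner in maturation gene activation, was higher at 1 h of light, with 566 ± 43.5 there, against 256 ± 21.1 at 1 h of stratification (1.09 ± 0.10, adjusted p = 3.48e-09). It was lower at 48 h of stratification, at 315 ± 20.2, than at 12 h, at 975 ± 35.7 (-1.58 ± 0.10, adjusted p = 7.53e-12), and lower at 6 h than at 1 h of light (-1.10 ± 0.10, adjusted p = 8.34e-09).

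AT1G75490, an AP2/ERF factor of the DREB2 group, was among the 12 named genes with the largest drop. It had 602, 584 and 621 at 12 h of stratification after 2240, 1999 and 2244 in dry seed, so it had lost more by 12 h than the median of the 118. At 48 h of stratification 52.5, 50.8 and 53.5 were left. At 1 h of light it had 90.6, 75.4 and 91.1, against 2674, 2661 and 2433 at 1 h of stratification (-4.68 ± 0.09, adjusted p = 4.53e-21). AT1G76590, a PLATZ zinc-binding protein, had 112, 121 and 132 at 1 h of light, against 3643, 3408 and 3735 at 1 h of stratification, and the trihelix factor AT4G31270 had 22.2, 26.0 and 30.9 against 601, 618 and 728. Both were called lower, with log2 differences of -4.71 ± 0.13 for AT1G76590 and -3.97 ± 0.11 for AT4G31270. AT1G75490 fell further over the light period, to a mean of 3.99, and AT1G76590 to 9.92, whereas AT4G31270 missed the size required (-0.64).

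Signalling proteins formed the next group, with 4 genes, all lower at 1 h of light than at 1 h of stratification. AT2G34740, a type 2C protein phosphatase of the family that includes negative regulators of abscisic acid signalling, had 32.5, 36.0 and 38.7 at 1 h of light, against 2524, 2493 and 2682 at 1 h of stratification. No array came near those of the other group (-5.64 ± 0.09, adjusted p = 3.80e-22). AT4G31860, another type 2C phosphatase, had 115, 138 and 109 against 2240, 2536 and 2372 (-4.14 ± 0.09, adjusted p = 3.52e-20). AT1G15330, which has CBS domains, had 221, 173 and 207 against 2236, 2306 and 1761 and fell further, to 21.0, 35.1 and 9.97 at 48 h of light.

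AT2G41410, an EF-hand calcium-binding protein, was the exception at the end of the course. It had 684, 765 and 694 at 48 h of light, against 905, 961 and 769 at 1 h of stratification, and did not pass the test (-0.29 ± 0.14, adjusted p = 0.0604). The 3 later arrays all lay below the 3 earlier ones, by little for the nearest pair. The level had been 117, 94.1 and 80.5 at 48 h of stratification and 277, 172 and 200 at 1 h of light. Over the light period it rose by 1.67 ± 0.14 (48 h against 1 h of light, adjusted p = 1.68e-10), so that 62.5% of the dry seed level was reached, the highest share among the 118.

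**Figure D2:**
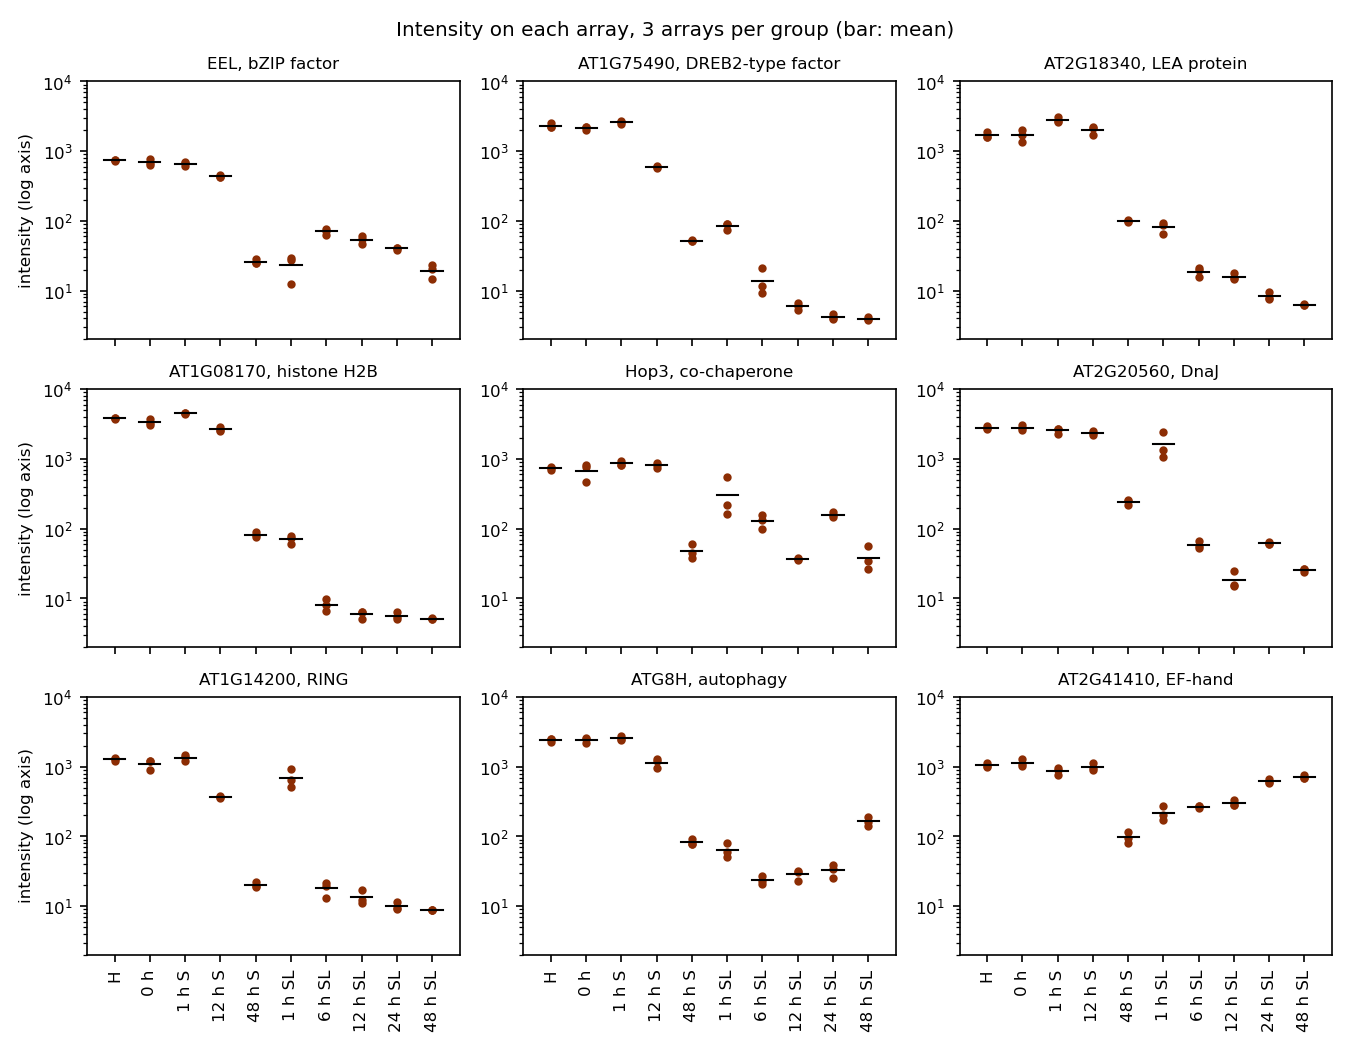
Intensity on each of the 30 arrays for members named in the text, 1 panel per gene, on a log axis, with a bar at each group mean. AT1G75490, AT2G18340 and AT1G08170 stay low once they have dropped. Hop3, AT2G20560 and AT1G14200 stand up again at 1 h of light. EEL rises at 6 h and ATG8H at 48 h of light, and AT2G41410 climbs through the light period.

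Protein folding and turnover was the role with the most genes, 8 in all. Hop3, which passes client proteins between HSP70 and HSP90, and AT2G20560, a DnaJ-type co-chaperone, belong to the chaperone machinery. AT1G14200, AT1G26800, AT5G03180 and AT1G30860 are RING finger proteins, a class with many ubiquitin ligases. ATG8H is an autophagy protein of the ATG8 family, and AT1G13340 resembles IST1, a factor of membrane sorting. Set against 1 h of stratification, 6 of the 8 were lower after 1 h of light and 8 after 48 h, where 9.36% and 16.8% of all probe sets and 96.6% and 99.2% of the 118 were.

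Several of these genes stood higher at 1 h of light than 1 h earlier. AT1G14200 had 915, 513 and 636 at 1 h of light, against 18.7, 19.6 and 22.3 at 48 h of stratification, a log2 difference of 4.28. AT2G20560 had 2420, 1074 and 1352 against 254, 251 and 218, a difference of 2.67. Hop3 had 543, 163 and 218 against 59.6, 37.7 and 45.0, a difference of 2.35, and AT1G26800 had 363, 169 and 253 against 23.2, 23.5 and 23.8, a difference of 2.81. No arrays of the 2 groups overlapped for these 4 genes, and replicate 1 was the highest of the 3 in light for each.

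In all, 12 of the 118 were higher by at least 1 at 1 h of light than at 48 h of stratification, and 1 was lower by as much. That is 10.2% higher, where 0.594% of all probe sets and 0.956% of the other stored ones were, and 0.378% of all were lower. AT2G41410 at 1.04 is the fifth named gene among the 12, and the other 7 carry no gene name. The rule used 48 h of stratification and chose low values there, so the count is a description with no test. Replicate 1 of 1 h of light was the highest array for 12 of the 12. Without it 10 were still higher by at least 1, with Hop3 at 1.70, AT2G20560 at 2.26, AT1G26800 at 2.52 and AT1G14200 at 4.03, while AT2G41410 was at 0.84. What makes that array differ was not tested.

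The probe set 258133_at, which has no gene name, had 1676, 539 and 917 at 1 h of light, against 11.2, 6.88 and 6.97 at 48 h of stratification, the widest such difference at 5.44. Without replicate 1 of 1 h of light that difference was 4.93. Set against 1 h of stratification, with 1121, 1056 and 964, the light arrays overlapped and no difference was called (-0.15 ± 0.25, adjusted p = 0.655). The other 3 probe sets not called lower there were AT2G20560 (-0.75 ± 0.18, adjusted p = 9.71e-04), AT1G14200 (-0.99 ± 0.14, adjusted p = 2.95e-06) and 245711_at (-0.96). All 3 missed on size and not on p. Without replicate 1 of 1 h of light AT2G20560 was at -1.08 and AT1G14200 at -1.21, both called lower, and the count of 114 was 117.

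At 6 h of light AT1G14200, AT2G20560, AT1G26800 and Hop3 were lower than at 1 h. Hop3, at a mean of 130 against 47.4 at 48 h of stratification, was still above its earlier low. So was AT1G26800, at 46.1 against 23.5. AT1G14200 had 21.7, 19.2 and 13.2 at 6 h, against 915, 513 and 636 at 1 h of light. AT2G20560 had 53.2, 56.5 and 66.3 against 2420, 1074 and 1352, AT1G26800 35.6, 56.6 and 46.1 against 363, 169 and 253, and Hop3 98.8, 132 and 160 against 543, 163 and 218. No arrays of the 2 groups overlapped, though for Hop3 the nearest were 160 and 163. These genes were singled out for high values at 1 h of light, which favours a lower value at 6 h. The values are therefore a description, and no test result is read from them. At 24 h Hop3 rose to 149, 156 and 172, against 36.9, 38.3 and 35.9 at 12 h (1.72 ± 0.28, adjusted p = 3.09e-05). AT2G20560 had 62.1 ± 1.74 at 24 h, against 18.6 ± 5.60 at 12 h (SD, n = 3 each, 1.19 ± 0.18, adjusted p = 8.22e-06), a call lost with 64 added, at 0.61.

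The remaining genes of this role were low at 1 h of light. AT5G03180 had 142, 125 and 140 at 1 h of light, against 3068, 2964 and 2763 at 1 h of stratification, and AT1G30860 had 46.1, 53.2 and 48.7 against 1774, 1744 and 1947. The IST1-like AT1G13340 was unusual before the drop. It had 693, 707 and 744 at 12 h of stratification, against 386, 357 and 410 in dry seed, the highest share of the dry seed level among the 118 at 186%. At 48 h of stratification 11.8, 19.6 and 12.1 were left. ATG8H fell to 59.98, 50.5 and 81.4 at 1 h of light, against 2751, 2418 and 2513 at 1 h of stratification (-5.03 ± 0.14, adjusted p = 1.36e-18). It rose late, to 163, 143 and 190 at 48 h of light, against 39.2, 34.5 and 25.3 at 24 h (1.89 ± 0.14, adjusted p = 1.03e-10).

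Stress protection had 4 genes, all called lower in both comparisons with 1 h of stratification, as 113 of the 118 were. AT2G18340, a late embryogenesis abundant (LEA) protein, first stood higher in imbibed than in dry seed, with 2749, 2616 and 3148 at 1 h of stratification, against 1377, 1700 and 2022 in dry seed. At 48 h of stratification 104, 97.4 and 101 were left, and at 1 h of light 65.2, 94.8 and 88.8 (-4.86 ± 0.12 against 1 h of stratification, adjusted p = 3.68e-19). AT4G25580, of the CAP160 family of cold- and drought-related proteins, had 398, 334 and 377 at 1 h of light, against 4001, 4070 and 4499 at 1 h of stratification. Its larger loss in light came by 6 h, with 32.2, 33.5 and 28.7 (-3.02 ± 0.10 against 1 h of light, adjusted p = 1.66e-16).

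AT1G05340, a small protein with a cysteine-rich transmembrane module, had 75.2, 69.8 and 72.8 at 1 h of light, against 5187, 4275 and 5040 at 1 h of stratification (-5.77 ± 0.11, adjusted p = 1.75e-21). AT2G38905, related to the cold-induced RCI2 membrane proteins, had 249, 173 and 226 against 3566, 3370 and 3280. It still had 33.7, 33.9 and 33.7 at 24 h of light and 5.18, 4.93 and 4.50 at 48 h. At the end of the course the 4 genes lay between 4.75 and 10.0, against 1700 to 4700 in dry seed.

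Oxidoreductases were 5 genes, with the brightest named gene in dry seed among them. It is AT5G01670, an aldo-keto reductase of the family that detoxifies reactive carbonyls, which had 15878, 15690 and 15499 in dry seed and still 14129, 13843 and 14375 at 12 h of stratification. It had 1386, 1320 and 1298 at 48 h of stratification and then declined through 939, 1030 and 907 at 1 h of light, 130, 149 and 159 at 6 h and 34.4, 36.6 and 44.6 at 12 h. The difference of 48 h of light from 1 h of stratification was -8.98 ± 0.08 (adjusted p = 4.67e-28). AT3G05260, a short-chain dehydrogenase/reductase, had 5.58, 5.54 and 4.47 at 48 h of light, against 13027, 13907 and 13073 at 1 h of stratification (-9.30 ± 0.13, adjusted p = 5.28e-25). Its steepest step in light came between 6 and 12 h (-3.25 ± 0.13, adjusted p = 5.25e-15).

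AT2G29300 and AT2G29340, both tropinone reductase-like, lie near each other, with 3 protein-coding genes between them in the TAIR10.1 assembly. AT2G29300 had 181, 160 and 226 at 1 h of light, against 3357, 2876 and 2854 at 1 h of stratification, and went on to 5.87, 5.52 and 11.2 at 48 h of light. AT2G29340 had 28.1, 25.5 and 31.9 against 656, 592 and 570 and did not pass the test over the light period (0.35 ± 0.17, adjusted p = 0.0778). Both were thus lost by 1 h of light, and their later courses were not compared by a test. AT1G17010, a 2-oxoglutarate and iron dependent oxygenase, fell to 54.5, 80.6 and 64.8 at 1 h of light, against 3225, 2954 and 3387 at 1 h of stratification. Of the 118, AT1G17010 and AT1G17090 lie 8 protein-coding genes apart and AT5G10695 and AT5G10730 3 apart, the only other pairs within 10 genes.

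Membrane transport proteins were 3, all lower at 1 h of light than at 1 h of stratification. AT5G17850, a cation and calcium exchanger, was higher at 12 h of stratification, at 1422, 1430 and 1277, than in dry seed, at 540, 888 and 866. It had 23.9, 20.1 and 12.8 at 1 h of light, against 1046, 1054 and 1149 at 1 h of stratification (-4.99 ± 0.15, adjusted p = 7.78e-18). AT2G42950, a CorA-like magnesium transporter, had 25.2, 26.9 and 26.6 against 1726, 1403 and 1684, and 17.0, 20.3 and 23.4 at 48 h of light. AT5G14120, of the major facilitator superfamily, stopped at 395, 306 and 309 at 1 h of light, against 3071, 3354 and 3127. It then rose to 734, 775 and 768 at 6 h of light (1.15 ± 0.10 over 1 h of light, adjusted p = 1.53e-09) and was lower again at 24 h.

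Chromatin and translation were represented by a gene each. AT1G08170, a histone H2B variant known from pollen and seed, had 61.4, 74.1 and 77.7 at 1 h of light, against 4581, 4485 and 4638 at 1 h of stratification (-5.72 ± 0.07, adjusted p = 1.52e-24). By 6 h of light it had 6.52, 9.84 and 8.15 (-1.85 ± 0.07 against 1 h of light, adjusted p = 2.24e-15), a call lost with 64 added, at -0.90. AT5G63190, a translation regulator with MA3 domains, kept more, at 406, 394 and 388 at 1 h of light, against 4364, 4255 and 5011. It held 651, 759 and 680 at 12 h of light and fell to 169, 175 and 205 at 48 h, against 474, 505 and 525 at 24 h.

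Sugar binding and transfer had 2 genes. AT3G21380, a jacalin-type lectin, had 133, 114 and 92.0 at 1 h of light, against 6243, 5232 and 6086 at 1 h of stratification (-5.52 ± 0.09, adjusted p = 3.80e-22). AT5G65550, a UDP-glycosyltransferase, had 126, 149 and 157 against 2333, 2177 and 2267 and was at 5.95, 4.83 and 5.89 by 12 h of light. AT3G21380 was still at 27.7, 20.3 and 20.6 then and had 5.44, 6.56 and 6.02 at 48 h.

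Among the 86 probe sets with no role given here, 84 were lower at 1 h of light and 86 at 48 h of light than at 1 h of stratification. AT5G39520 had the largest drop of all named genes on the log2 scale with 16 added, to 16.3, 8.72 and 8.92 at 48 h of stratification, against 1686, 1223 and 1243 in dry seed. AT2G25625 was at 4.37, 4.38 and 4.38 at 48 h of stratification, against 688, 639 and 663 in dry seed, and stayed between 4.08 and 4.44 on every later array. AT5G45690 was bright, with 1432, 1227 and 1582 at 1 h of light, against 13123, 13123 and 13306 at 1 h of stratification, and ended at 4.64, 5.55 and 5.60. AT1G23070 stood at 357, 429 and 423 at 6 h of light, against 271, 212 and 176 at 1 h, and later went down to 6.72, 5.34 and 5.45.

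**Figure D3:**
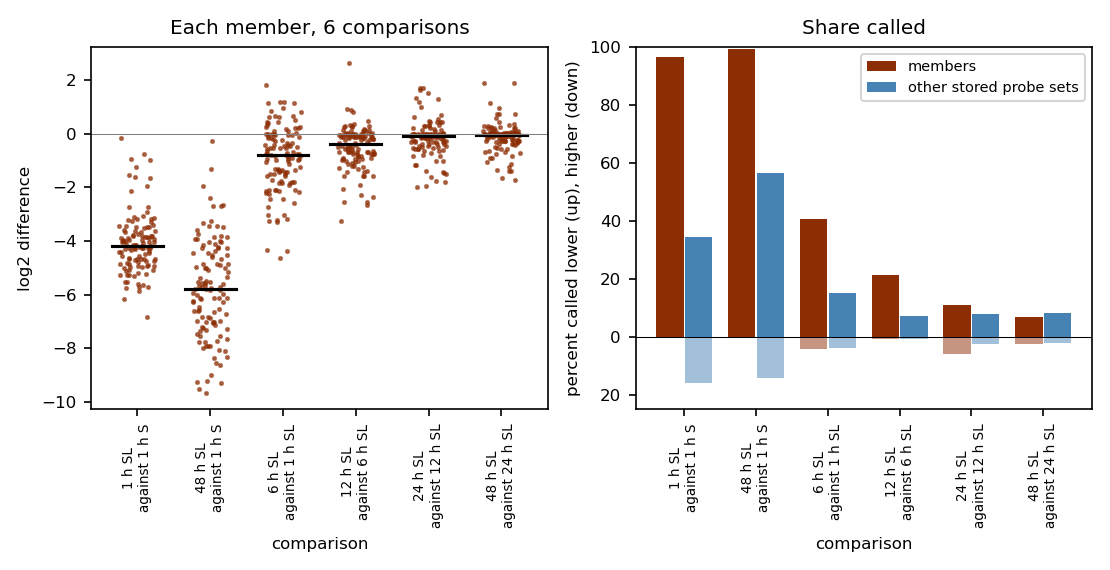
Left, the log2 difference of each of the 118 (points) with the median (bar) in 6 comparisons. Right, the percent called lower (upward) and higher (downward) by limma among the 118 and the other stored probe sets. The medians are -4.18 and -5.78 in the comparisons with 1 h of stratification and -0.78 at 6 h against 1 h of light.

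The course of the 118 in light was uneven. At 6 h of light 48 of the 118 were lower and 5 higher than at 1 h, where 4.39% of all probe sets were called lower and 4.29% higher. From 6 to 12 h 25 were lower and 1 higher (all probe sets 1.59% and 2.75%), from 12 to 24 h 13 and 7 (2.3% and 4.92%), and from 24 to 48 h 8 and 3 (3.04% and 4.6%). Among the other stored probe sets the shares called lower were 15.1%, 7.26%, 7.87% and 8% in these steps. Over the whole light period 69 were lower and 6 higher at 48 h than at 1 h, where 15.9% and 14.8% of all probe sets and 45.7% and 8.47% of the other stored ones were called. The counts of the later steps depend on the number added before the log, since many values were small by then. With 1 added they were 48, 32 and 23 in either direction in place of 26, 20 and 11, and with 64 added 33, 10, 10 and 5 for the 4 steps, where 16 gave 53 for the first.

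Over the single steps 68 of the 118 were called lower at least once, 14 higher at least once, 8 did both and 44 did neither. Shares of all probe sets were not counted for this, so nothing is read from these counts. By group means 10 of the 118 were under an intensity of 16 already at 48 h of stratification. A further 5 came under it at 1 h of light, 14 at 6 h, 27 at 12 h, 14 at 24 h and 11 at 48 h, and 37 never did. At 48 h of light 74 of the 118 were under 16, which is 62.7%, against 7.71% of the other stored and 47.5% of all probe sets. A probe set near that level has little room to be called lower, so the shrinking counts say little about the rate of loss.

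The 6 that ended higher at 48 h than at 1 h of light were AT1G50020, AT2G41410, ATG8H, AT1G68500 and 2 probe sets without a single gene name. AT1G50020 had 274, 269 and 268 at 48 h of light, against 59.5, 55.4 and 53.0 at 1 h (1.99 ± 0.08, adjusted p = 7.47e-16), with no overlap, and 1137, 1089 and 1080 at 1 h of stratification. AT1G68500 peaked between, at 196, 230 and 213 at 12 h of light, against 26.4, 20.2 and 17.5 at 6 h (2.62 ± 0.14, adjusted p = 1.09e-12). Its difference over the whole light period was 1.02, and the call was lost in 5 settings. It was 0.49 with 64 added, 0.94 after quantile normalization, 0.82 with arrays centred by their medians, 0.89 without replicate 3 of 1 h of light and 0.96 without replicate 3 of 48 h of light. The probe set 255895_at, which names 2 genes, had 292, 235 and 237 at 48 h of light, against 10.96, 7.77 and 5.65 at 1 h (3.49 ± 0.10, adjusted p = 1.15e-18). ATG8H missed the limit over that time with 64 added, at 0.84, and with arrays centred by their medians, at 0.98.

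**Figure D4:**
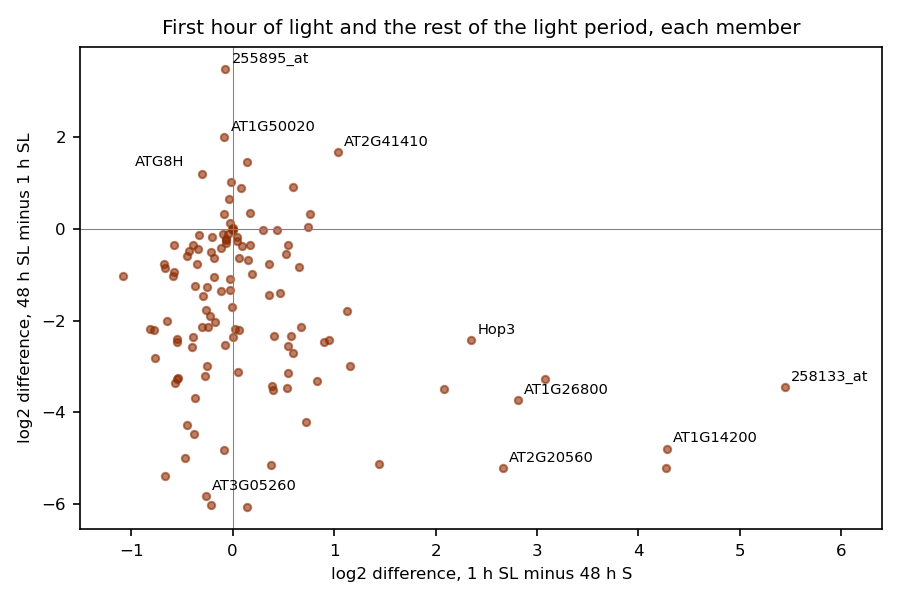
For each of the 118, the log2 difference of 1 h of light minus 48 h of stratification (horizontal) and of 48 h minus 1 h of light (vertical). Most points lie near 0 on the horizontal axis and below 0 on the vertical one, the 12 that were higher by at least 1 at 1 h of light lie to the right, and 6 were called higher over the light period.

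Other genes known from seed maturation kept widely different shares of their level over the same interval. Of the LEA protein list 35 of 51 genes had a named probe set, and AT2G18340 was the only one among the 118, with 2 more past the thresholds but set aside. Of the other 32 genes 12 were lower and 0 higher at 48 h of stratification than in dry seed by limma. Of all probe sets 8.23% were called lower and 13.1% higher there, and of the other stored ones 31.6% and 14.8%. Some of the 32 had little room to be called lower, such as AT2G03740 at 4.70 and COR15B at 6.55 in dry seed. Nothing about LEA genes as a class is read from the count. AT1G72100 had 573 ± 26.8 at 48 h of stratification and 4489 ± 510 in dry seed (-2.93 ± 0.14, adjusted p = 3.74e-14). M17, by contrast, was at 18528 against 14555 (0.35 ± 0.20, adjusted p = 0.138), and M10 at 16764 against 16124 (0.06 ± 0.17, adjusted p = 0.788), neither of them called. M17 was at 17390 at 1 h of light and came down to 438 by 12 h of light.

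Of the heat shock list 9 of 22 genes had a named probe set, and 3 of them were past the thresholds but set aside. Of the other 6, 4 were lower and 1 higher at 48 h of stratification than in dry seed. Of all probe sets 8.23% were called lower and 13.1% higher there, and of the other stored ones 31.6% and 14.8%. AT2G19310, a small heat shock protein, had 42.0 at 48 h of stratification and 1126 in dry seed (-4.29 ± 0.20, adjusted p = 1.52e-14) and stood at 305 at 1 h of light. Of the storage and oil body list 9 of 24 genes had a named probe set, none of them among the 118. In the same comparison, with the same shares beside it, 6 of the 9 were lower and 0 higher. PAP85, a vicilin-like storage protein, was at 22568 against 23245 and was not called (-0.04 ± 0.18, adjusted p = 0.848), whereas AT3G18570, an oleosin, fell to 586 against 2170 (-1.86 ± 0.10, adjusted p = 9.76e-14). By 48 h of light all 9 were lower than at 1 h of stratification. The LEA and heat shock counts leave out genes with the steepest falls by construction, so they do not compare those lists with the 118. The storage count left out no named gene. AT1G03890 is counted among the storage genes and HSP17.6C among the heat shock genes, since neither met the thresholds. No list was tested against the 118.

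Of 13 mRNA decay factors 4 had a named probe set, and 1 was higher and 0 lower at 48 h of stratification than in dry seed, where 13.1% of all probe sets were called higher and 8.23% lower. It was AT3G58560, a deadenylase-like protein of the CCR4 family, with 652 against 166 (1.87 ± 0.11, adjusted p = 4.82e-13). The decapping activators LSM1A and LSM1B were not called. The lists of abscisic acid synthesis and breakdown, with 7 genes, and of antioxidant, raffinose family and desiccation genes, with 11, had 0 named probe sets and could not be followed. Of the 3 seed markers OLEO3 was lower at 48 h of stratification, at 171 ± 9.58, than in dry seed, at 640.2 ± 66.9 (-1.81 ± 0.14, adjusted p = 1.59e-10). AT3G01570 and LTI30 were not called, nor were the 2 seed coat markers. The pollen marker AT3G01270 was lower, at 7.82 against 43.8, and the other 3 pollen markers were not called. Their part in the losses of the 118 was not tested.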

How the data were processed

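RNA of 30 seed samples was hybridized to 1-colour Affymetrix arrays. The authors deposited 1 intensity per probe set and sample, on a linear scale. The submitters' processing notes name Partek, RMA and MAS5 without saying which produced these intensities. They were not normalized again. Of 22810 probe sets 64 controls were left out. Of the rest 13513 name exactly 1 gene in the annotation used, 503 several and 8730 none, and 13436 of those with 1 gene were matched to the TAIR10.1 gene table.

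From the deposited intensities log2(intensity + 16) was computed, which understates changes of dim probe sets. All 30 arrays entered a linear model of 10 group means, fitted by lmFit and eBayes of limma 3.58.1 under R 4.3.3 ( 20 residual and 1.2052 prior degrees of freedom), with Benjamini-Hochberg adjustment over all 22746 probe sets in each comparison. The members, the gene lists, the roles and the comparisons were chosen with earlier results of these data known. Roles were given by hand to 32 members. Genes were named by rank among members with 1 gene: the 12 largest drops, the 8 brightest in dry seed, the 6 highest at 1 h of light over 48 h of stratification, the 6 highest and 6 lowest differences over the light period, list genes, genes with a symbol and 3 on each side of the limit. AT4G31270, AT4G31860, AT1G15330, AT5G03180, AT1G30860, AT1G13340, AT4G25580, AT2G38905, AT2G29300, AT2G29340, AT1G17010, AT5G17850, AT5G14120, AT5G65550, AT1G17090, AT5G10695 and the probe sets without a name fall outside it and were chosen after their values were seen. AT5G05220, AT1G16770, AT5G60760, AT1G29680, AT3G15280, AT5G04000, AT5G10730 and AT4G11570 met the ranks above, but their values are not given here. Promoter motifs were not analysed. Alternatives were pseudocounts of 1 and 64, a filter at an intensity of 50, quantile normalization, median centring, only the groups compared, a replicate block and leaving out each array. Tables used pandas 2.3.3 and numpy 2.4.6 and figures matplotlib 3.10.9, all under Python 3.11.15. Only 3 arrays per group limit the precision.

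Replicate numbers did not pair the samples. Correlations of same-numbered deviations ran from -0.20 to 0.18, and in 0 of 7 comparisons was every pair over 0.1.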

Additional observations from a re-analysis of the deposited data

How the results depend on the processing

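The number added before the log mattered most. With 64 in place of 16, 58 probe sets met the rule in place of 118, all of them among the 118, and the members called were 33 at 6 h against 1 h of light, 10 at 12 h against 6 h, 10 at 24 h against 12 h and 5 at 48 h against 24 h. With 1 added the last 3 counts were 48, 32 and 23. The other planned settings moved no count by over 1.5 times. Leaving out each array gave 114 to 120 members, 114 to 117 called at 1 h of light against 1 h of stratification, 117 to 117 at 48 h of light against 1 h of stratification, 54 to 57, 24 to 29, 19 to 21 and 11 to 12 in the 4 light steps in order, and 73 to 75 over the light period. Added settings, chosen after seeing the data, gave 9 to 15 members higher by at least 1 at 1 h of light than at 48 h of stratification (10 to 13 without single arrays). They gave 12 to 15 LEA genes lower at 48 h of stratification than in dry seed (12 to 13 without single arrays), 4 to 4 heat shock genes and 5 to 6 storage genes. The replicate block gave the same counts of members called in all 7 comparisons (114, 117, 53, 26, 20, 11 and 75), and of 21 samples 5 correlated best with their own number, so the numbers gave no pairing. Of 3003 alternative values of named genes 2918 kept direction and call, 40 lost the call (26 with 64 added), 45 gained one (20 with 1 added) and 0 changed sign. Intensities under about 16 are near the floor of the arrays, and an order among them has no meaning. Probe sets without a name could be followed by identifier only.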
